A study of Mus musculus with 21 samples.

Results

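The 10 genes described here encode the proteins that liver places on lipoproteins, and the transfer protein that loads them with lipid: *Apoa1*, *Apoa2*, *Apoa4*, *Apoa5*, *Apob*, *Apoc1*, *Apoc3*, *Apoe*, *Apom* and *Mttp*. They were taken by symbol from GENCODE M21 (GRCm38), and each matched 1 row of a count table with 46078 rows, of which 26504 held any count. All 10 passed the filter on low counts, beside 14370 genes in all. The samples were 21 mouse livers in 6 groups, with the genotype labelled cse (called KO here) or WT, and a control diet (CTR), a diet without cysteine (noCys) or a diet without tryptophan (noTrp). There were 3 WT CTR, 4 KO CTR, 4 WT noCys, 3 KO noCys (numbered 1, 3 and 4), 2 WT noTrp and 5 KO noTrp livers, each a separate biological replicate by its label. The KO animals lack *Cse* (symbol *Cth*), the gene for cystathionine γ-lyase, on a mixed 129 and C57BL/6 background, and the study's text calls the comparison animals heterozygous where the labels say WT. By the study's methods all were males at least 9 weeks old, which ate a calorie-restricted control diet for 3 days and then their test diet, also restricted, for 2 days. In every amino acid-free diet the other amino acids were raised in proportion, and the diets otherwise shared 1 defined formula.

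Lipoproteins carry triglyceride and cholesterol through blood. The liver builds very low density lipoprotein (VLDL) around 1 molecule of ApoB, with MTP (*Mttp*) adding lipid as the chain is made, and secretes ApoA-I as the core of high density lipoprotein (HDL). Smaller exchangeable apolipoproteins move between particles, where ApoC-III slows and ApoA-V promotes the clearance of triglyceride, ApoC-I restrains lipid exchange and uptake, and ApoE is a ligand for the receptors that remove remnants.

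Library totals ranged from 8889951 to 27230852 counts. *Cth* was between 6.34 and 15 counts (CPM, counts scaled to the size of the library) in the 12 KO livers and between 108 and 452 CPM in the 9 WT livers, so no library went against its genotype label. The size was adjusted by the trimmed mean of M values (TMM), and the 2 highest scaling factors were those of KO noCys replicates 3 (1.14) and 4 (1.12). Hepatocyte markers were abundant in every library, led by *Alb* with at least 367578 counts. Of the markers of gut epithelium, which also makes several of these proteins, *Cdx2*, *Sis* and *Alpi* had 0 counts in all 21 libraries, whereas *Fabp2* (502 to 2471 counts) and *Lgals4* (539 to 1848 counts) were present in all and *Cldn7* in all but 1.

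Of the 10 genes, 5 were among the most abundant transcripts of the liver. By CPM per kilobase of exon, *Apoa2* ranked 1 of 14318 genes with a known length, *Apoe* 3, *Apoa1* 4, *Apoc1* 9 and *Apoc3* 18, by their medians over the 21 libraries. *Apoa5* ranked 74, *Apom* 220, *Apob* 256, *Apoa4* 604 and *Mttp* 1498. On this length-scaled level the median ran from 24667 for *Apoa2* to 29.7 for *Mttp*. The 10 genes took between 5.25% and 7.44% of all counts in a library, and the 3 lowest shares were those of the 3 KO noCys livers.

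The genes lie in a few places of the genome. On chromosome 9, *Apoa1* (46228580 to 46230466, plus strand), *Apoc3* (46232933 to 46235636, minus strand), *Apoa4* (46240696 to 46243459, plus strand) and *Apoa5* (46268633 to 46271919, plus strand) share 43.3 kb. On chromosome 7, *Apoc1* (19689481 to 19692660) and *Apoe* (19696109 to 19699188), both on the minus strand, share 9.71 kb, and with *Apoc2* and *Apoc4* the cluster covers 27.6 kb. *Apoa2* is on chromosome 1 (171225054 to 171226379, plus strand), *Apob* on chromosome 12 (7977648 to 8016835, plus strand) and *Apom* on chromosome 17 (35128997 to 35132050, minus strand). *Mttp* (138089854 to 138144968, minus strand) is on chromosome 3, 19.7 Mb from the deleted gene *Cth*. Genes annotated on the opposite strand overlap 69.8% of the exon length of *Apoa4*, 20.8% of that of *Apoa5* and 9.49% of that of *Mttp*. No source used here states that the counting took strand into account. Reads from the shared stretches of these 3 genes may therefore have been left out of the counts or mixed with those of the partners.

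Upstream sequences of 4 genes are given from RefSeq (GRCm38.p6): *Apoa2*, which fell in KO noCys livers, and 3 genes that did not pass the test. They run 5′ to 3′ on the strand of the gene and end before the first exon base of GENCODE and of the RefSeq start used. For *Apoa2*, RefSeq has another start farther upstream (window chr1:171221314-171221613), and the printed sequence lies downstream of that start. The printed sequences lie at chr1:171224804-171225053 (*Apoa2*), chr9:46228380-46228579 (*Apoa1*), chr9:46268358-46268607 (*Apoa5*) and chr12:7977427-7977647 (*Apob*), all on the plus strand. Capitals mark TATAAA, the core of a TATA box, and CAAAGGNCA, a core bound by nuclear receptors that include HNF4A, on either strand.
Apoa2: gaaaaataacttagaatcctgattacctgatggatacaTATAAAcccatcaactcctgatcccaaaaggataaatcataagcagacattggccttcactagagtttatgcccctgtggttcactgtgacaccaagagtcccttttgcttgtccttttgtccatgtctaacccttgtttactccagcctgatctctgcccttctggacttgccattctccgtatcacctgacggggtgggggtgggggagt
Apoa1: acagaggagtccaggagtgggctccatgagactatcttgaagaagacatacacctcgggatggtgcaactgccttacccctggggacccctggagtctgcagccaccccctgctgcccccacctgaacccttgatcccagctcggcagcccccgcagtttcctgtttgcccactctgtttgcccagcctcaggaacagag
Apoa5: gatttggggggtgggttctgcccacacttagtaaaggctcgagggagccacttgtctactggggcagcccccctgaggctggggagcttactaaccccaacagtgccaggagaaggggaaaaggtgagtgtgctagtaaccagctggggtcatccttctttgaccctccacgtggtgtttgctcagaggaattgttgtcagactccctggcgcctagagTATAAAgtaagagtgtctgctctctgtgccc
Apob: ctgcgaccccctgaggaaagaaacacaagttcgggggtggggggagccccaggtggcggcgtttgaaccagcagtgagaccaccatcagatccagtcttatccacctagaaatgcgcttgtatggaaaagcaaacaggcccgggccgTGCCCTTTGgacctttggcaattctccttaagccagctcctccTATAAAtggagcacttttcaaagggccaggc
TATAAA stands close to the end of the *Apoa5* and *Apob* sequences and near the far end of that of *Apoa2*, and CAAAGGNCA, on the opposite strand, in that of *Apob* alone among these 4. Over all 32851 promoter windows of 300 bases, 13.6% held TATAAA and 1.93% held CAAAGGNCA. The amino acid response element core TGATGNAA (3.97% of all windows) was in none of these 4 sequences, nor was the nuclear receptor half-site AGGTCA (16.3% of all windows), both searched on both strands. Among windows of the 10 genes that are not printed, 1 of *Apoe* held TGATGNAA, with TATAAA at 2 places. The window of *Apoa2* farther upstream held AGGTCA. Windows were at hand for 8 of the 10 genes, without *Apoc1* and *Apoc3*.

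In KO against WT livers without cysteine, *Apoc1*, *Apoc3*, *Apoa2* and *Apoe* fell, and the other 6 genes did not pass the test. *Apoc1* fell to 0.418 and *Apoc3* to 0.495 times the WT noCys level, whereas the ApoB scaffold gene and *Mttp* were at 0.934 and 1.07 times it. This comparison asks what the loss of both cysteine sources, synthesis and diet, does beyond the diet alone. Across all genes, 28.2% were called in it (14.8% higher and 13.4% lower), by edgeR's quasi-likelihood test at a Benjamini-Hochberg adjusted p under 0.05. Against this, 4 of the 10 genes were called lower and 0 higher, and the median log2 fold change of the 10 was -0.37, beside -0.02 over all genes. In bulk tissue, fewer cells of a type and less RNA per cell cannot be told apart.

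**Figure D1:**
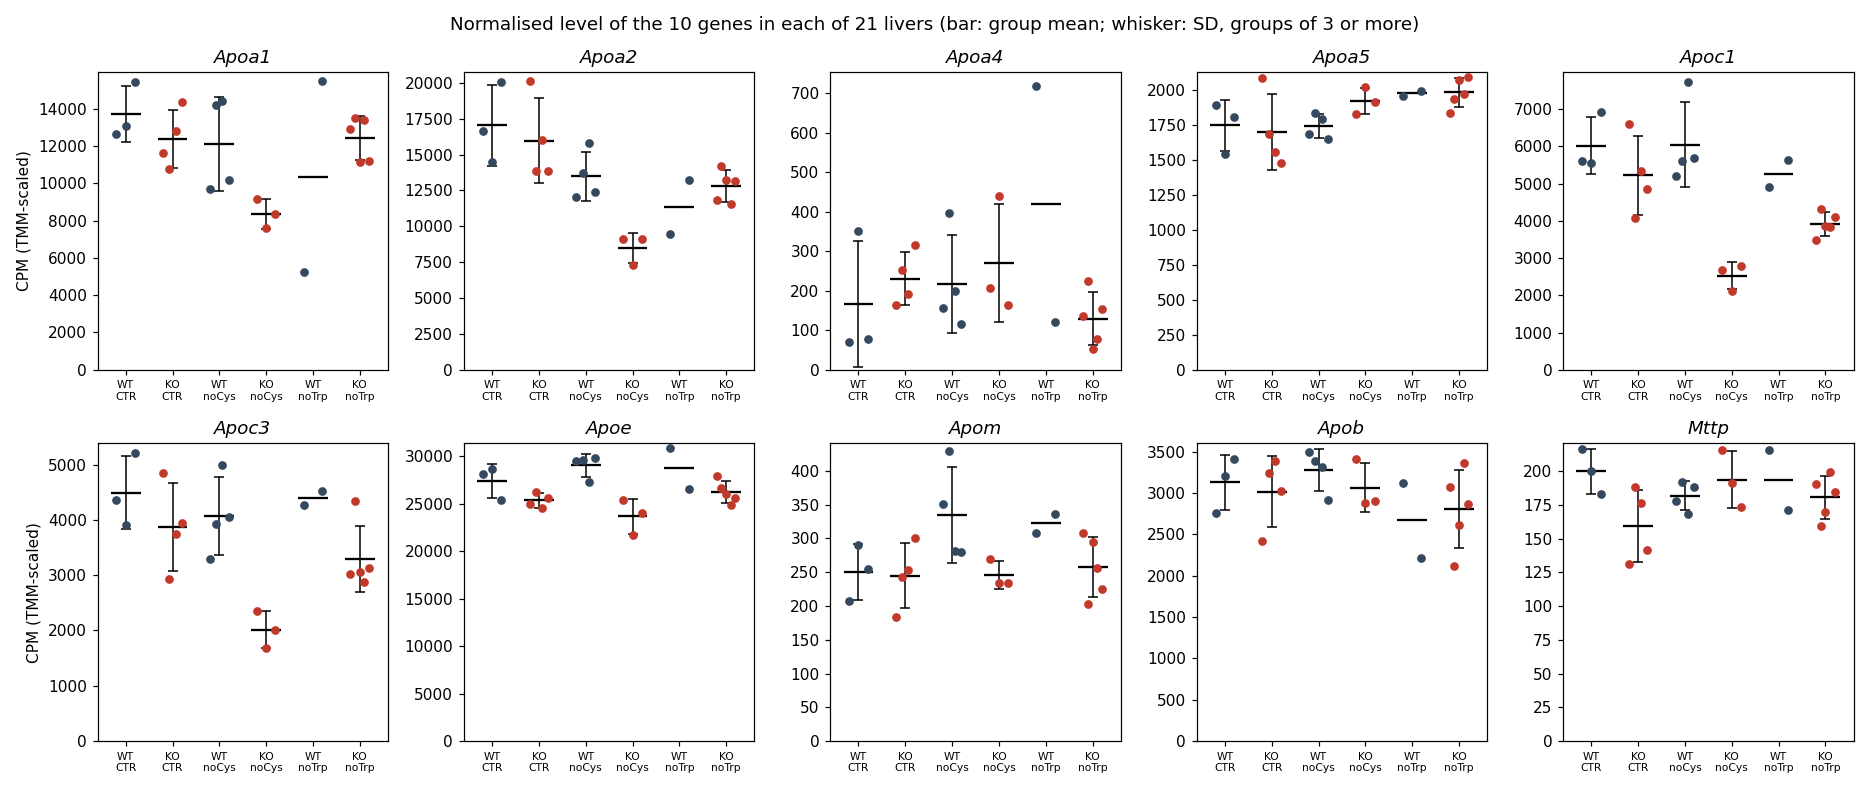
TMM-scaled CPM of the 10 genes (y axes, from 0) in each of the 21 livers, by genotype and diet (x axes). Dots are livers (dark for WT, red for KO), bars group means and whiskers the SD in groups of 3 or more. The 3 KO noCys livers lie below all 18 others for *Apoa2*, *Apoc1* and *Apoc3*, and within the range of the others for *Apob*, *Apoa5* and *Mttp*.

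*Apoc1*, whose product is a small protein of VLDL and HDL, was at 2673, 2123 and 2798 CPM in the KO noCys livers. It was at 5198, 5599, 7720 and 5681 CPM in the WT noCys livers. The groups were far apart, and the highest WT noCys liver was replicate 3. *Apoc1* fell by 1.26 on the log2 scale (SE 0.17, edgeR quasi-likelihood adjusted p = 2.14e-05).

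*Apoc3*, which encodes an inhibitor of lipoprotein lipase, was at 2346, 1678 and 2011 CPM in KO noCys and at 3286, 3925, 4997 and 4052 CPM in WT noCys livers. Here too the groups did not overlap, and KO noCys replicate 3 was again the lowest. *Apoc3* fell by 1.01 on the log2 scale (SE 0.18, edgeR quasi-likelihood adjusted p = 0.000437).

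*Apoa2*, the gene of the second protein of HDL, was at 9122, 7292 and 9110 CPM in KO noCys and at 12032, 13713, 15822 and 12407 CPM in WT noCys livers. The WT noCys livers were all higher. *Apoa2* fell by 0.67 on the log2 scale (SE 0.16, edgeR quasi-likelihood adjusted p = 0.00495).

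*Apoe*, the receptor ligand of remnant particles, moved much less. It was at 25339, 21640 and 23982 CPM in KO noCys and at 29502, 29599, 27258 and 29821 CPM in WT noCys livers. The groups were separate but close. *Apoe* fell by 0.30 on the log2 scale (SE 0.10, edgeR quasi-likelihood adjusted p = 0.0387), but 5 of 9 other settings lost the call, with an adjusted p of up to 0.544, and its log2 fold change ran from -0.31 to -0.09 over the 9 settings, the last under library totals. It was also lost without WT noCys replicate 1, 2 or 4 or KO noCys replicate 3 or 4, with an adjusted p of up to 0.177 in edgeR's test and log2 fold changes from -0.35 to -0.24 over the 7 fits without 1 library.

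*Apoa1* and *Apom* were also lower in every KO noCys liver than in every WT noCys liver, without passing the test. *Apoa1*, the main protein of HDL, was at 9151, 7589 and 8331 CPM against 9679, 14200, 14407 and 10183 CPM, which is -0.54 on the log2 scale (SE 0.24, adjusted p = 0.10 in edgeR's quasi-likelihood test). *Apom*, the HDL carrier of sphingosine 1-phosphate, was at 270, 234 and 234 CPM against 351, 429, 281 and 279 CPM, or -0.45 on the log2 scale (SE 0.18, adjusted p = 0.0672 in the same edgeR fit). In all, 6 of the 10 genes had every KO noCys liver below every WT noCys liver, and 18.1% of all genes tested did so, while 0 of 10 had every one above, beside 19.4% of all genes.

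The 2 genes of VLDL assembly stayed close to the WT noCys level. *Apob* was at 3412, 2883 and 2902 CPM in KO noCys and 3496, 3391, 3320 and 2917 CPM in WT noCys livers, and its log2 fold change was -0.10 (SE 0.16, 95% interval -0.40 to 0.21). *Mttp* was at 216, 191 and 174 CPM against 178, 192, 169 and 188 CPM, with a log2 fold change of 0.09 (SE 0.13, 95% interval -0.15 to 0.34). KO and WT livers overlapped for both genes, and changes within these intervals were not detectable with 3 and 4 livers.

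*Apoa5*, the activator of triglyceride clearance, was at 1828, 2018 and 1914 CPM in KO noCys and 1681, 1834, 1792 and 1651 CPM in WT noCys livers, a log2 fold change of 0.14 (SE 0.11, 95% interval -0.08 to 0.36). *Apoa4*, which liver and gut express with feeding state, was the most uneven of the 10 genes, with a 13.4-fold span over the 21 livers, from 53.6 to 719 CPM. Its log2 fold change was 0.32 with an SE of 0.60, so that neither a higher nor a lower level was detectable for it.

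The diet comparison within KO livers gave the same 3 leading genes. Of all genes, 20.2% were called in KO noCys against KO CTR, 10.6% higher and 9.59% lower. *Apoc1*, *Apoc3* and *Apoa2* were called lower and none of the 10 higher, with a median log2 fold change of -0.05 over the 10 genes and 0.00 over all genes. The 2 comparisons share the KO noCys livers.

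*Apoc1* was at 6605, 4063, 5349 and 4865 CPM in the KO CTR livers, and its fall in KO noCys livers was by 1.04 on the log2 scale (SE 0.17, edgeR quasi-likelihood adjusted p = 0.000205). *Apoc3* was at 4854, 2935, 3750 and 3942 CPM in KO CTR livers, and fell by 0.94 on the log2 scale (SE 0.18, edgeR quasi-likelihood adjusted p = 0.00121). *Apoa2* was at 20123, 13871, 16038 and 13858 CPM in KO CTR livers, and fell by 0.91 on the log2 scale (SE 0.16, edgeR quasi-likelihood adjusted p = 0.000707). For each of the 3 genes the KO CTR livers lay above all KO noCys livers, with replicate 1 the highest of them.

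*Apoa1* was separated too, at 11632, 10767, 12798 and 14357 CPM in KO CTR livers, but its log2 fold change of -0.57 (SE 0.24) had an adjusted p of 0.10 in edgeR's quasi-likelihood test, whereas limma-voom (adjusted p = 0.0143) and the edgeR fit of the compared groups (adjusted p = 0.0307) called it. These 4 of 10 genes had every KO noCys liver below every KO CTR liver, beside 13.2% of all genes, and 0 of 10 every one above, beside 15.4%. *Apoe* was at 24910, 26240, 24528 and 25622 CPM in KO CTR livers, overlapping KO noCys, and its log2 fold change there was -0.10 (SE 0.10, 95% interval -0.30 to 0.10). *Apom* had a log2 fold change of 0.01 (SE 0.18), *Apob* of 0.02 (SE 0.16), *Apoa5* of 0.18 (SE 0.11) and *Mttp* of 0.28 (SE 0.12, edgeR quasi-likelihood adjusted p = 0.121).

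Removal of another amino acid was the control for a missing nutrient as such. In KO noCys against KO noTrp livers 13.9% of all genes were called, 7.17% higher and 6.75% lower, and again *Apoc1*, *Apoc3* and *Apoa2* were called lower and none higher. *Apoc1* was at 3477, 4325, 3857, 3841 and 4106 CPM in KO noTrp livers and fell from these by 0.63 on the log2 scale in KO noCys (SE 0.16, edgeR quasi-likelihood adjusted p = 0.0112). *Apoc3* was at 3023, 4348, 3064, 2874 and 3128 CPM in KO noTrp livers and fell by 0.71 (log2, SE 0.17, edgeR quasi-likelihood adjusted p = 0.0107). *Apoa2* was at 11827, 14237, 13230, 11534 and 13159 CPM in KO noTrp livers and fell by 0.59 (log2, SE 0.16, edgeR quasi-likelihood adjusted p = 0.0166). Every KO noTrp liver was above every KO noCys liver for these genes, and the KO noTrp mean lay below that of KO CTR. The 3 calls rested on KO noCys replicate 3, the lowest liver for each gene: without it the adjusted p values in the edgeR fit were 0.101 for *Apoc1*, 0.0964 for *Apoc3* and 0.127 for *Apoa2*, with log2 fold changes of -0.52, -0.59 and -0.49. With *Apoa1*, 4 of the 10 genes had every KO noCys liver below every KO noTrp liver, beside 9.55% of all genes, and 0 of 10 every one above, beside 10.0%.

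**Figure D2:**
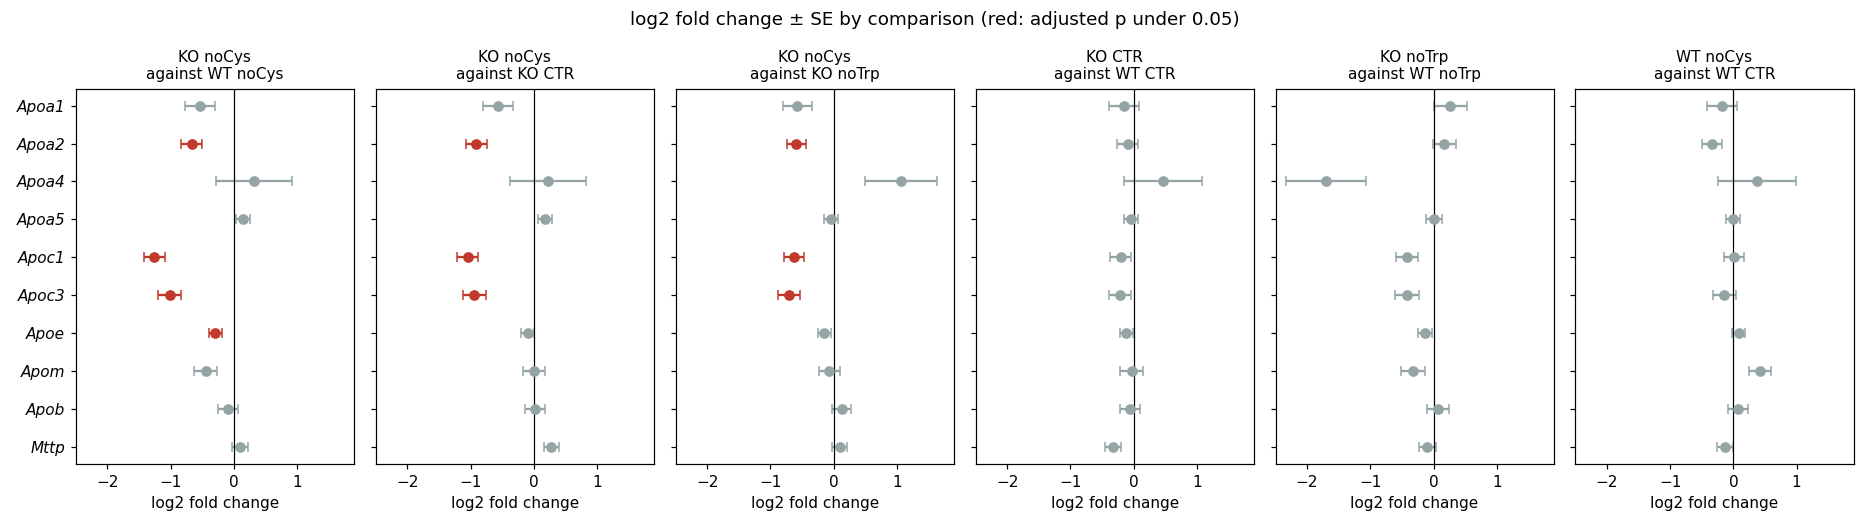
Log2 fold change (x axes) with its SE for each of the 10 genes (y axis) in 6 comparisons, red where the edgeR quasi-likelihood adjusted p was under 0.05. *Apoc1*, *Apoc3* and *Apoa2* are red in the 3 comparisons of KO noCys livers, *Apoe* in the comparison with WT noCys alone, and no gene is red in the other 3.

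Outside the KO noCys livers no call was made for these genes. In KO CTR against WT CTR, 0 of 10 were called, beside 0.320% of all genes (0.0696% higher and 0.251% lower), and the log2 fold changes ran from -0.33 for *Mttp* to 0.47 for *Apoa4*. In KO noTrp against WT noTrp 0 of 10 were called beside 0.195% (0.0696% higher and 0.125% lower), with *Apoa4* at -1.70 (SE 0.63, edgeR quasi-likelihood adjusted p = 0.364), *Apoc1* at -0.43 (SE 0.17) and *Apoc3* at -0.42 (SE 0.19). In WT noCys against WT CTR 0 of 10 were called beside 0.661% (0.390% higher and 0.271% lower), and *Apoc1* was at 0.01 (SE 0.16, 95% interval -0.31 to 0.32). In KO noTrp against KO CTR 0 of 10 were called beside 1.87% (0.779% higher and 1.09% lower), with *Apoc1* at -0.41 (SE 0.14, edgeR quasi-likelihood adjusted p = 0.135). In WT noTrp against WT CTR, with 2 livers in 1 group, 0 of 10 were called beside 3.19% (1.70% higher and 1.5% lower). At an unadjusted p under 0.05 in edgeR's test, *Mttp* passed in the first of these comparisons, *Apoa4*, *Apoc1* and *Apoc3* in the second, *Apoa2* and *Apom* in the third, *Apoa2*, *Apoa5* and *Apoc1* in the fourth and *Apoa2* in the last. DESeq2 and limma-voom called 0 of 10 in the first 4 of these comparisons.

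Groups that did not overlap were also few there. In KO CTR against WT CTR, KO noTrp against KO CTR and WT noCys against WT CTR, 0 of 10 genes were separated, beside 5.39%, 3.17% and 9.15% of all genes higher and 5.53%, 3.15% and 7.24% lower. *Apoc1* and *Apom* were lower in all 5 KO noTrp than in both WT noTrp livers, 2 of 10 genes beside 4.97% of all genes, with 0 of 10 higher beside 4.98%. In WT noTrp against WT CTR, *Apoa2* was lower in both livers and *Apoa5* and *Apom* higher, 1 and 2 of 10 genes beside 15.3% of all genes in either direction.

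The 2 WT noTrp livers differed from each other in *Apoa1* and *Apoa4*. Replicate 1 had 5259 CPM of *Apoa1*, the lowest of the 21 livers, and 719 CPM of *Apoa4*, the highest, whereas replicate 2 had 15466 CPM of *Apoa1*, the highest, and 121 CPM of *Apoa4*. Without replicate 2, *Apoa1* was called higher in KO noTrp than in the remaining WT noTrp liver (log2 fold change 1.24, edgeR quasi-likelihood adjusted p = 0.00849), a value that assumes that this liver varies like those of the other groups.

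The tests of the difference between effects singled out fewer genes. The effect of removing cysteine was lower in KO than in WT livers for *Apoc1*, by 1.05 on the log2 scale (-1.05, SE 0.23, edgeR quasi-likelihood adjusted p = 0.00926), and 1 of the 10 genes was called, beside 7.44% of all genes (3.56% higher and 3.88% lower). This call was kept in all 14 fits without 1 library and in all 9 other settings. *Apoc3* was at -0.80 in that test (SE 0.26, edgeR quasi-likelihood adjusted p = 0.0618) and *Apoa2* at -0.57 (SE 0.23, edgeR quasi-likelihood adjusted p = 0.135). The genotype effect without cysteine minus that without tryptophan was -0.84 for *Apoa2* (SE 0.24, adjusted p = 0.0450) and -0.83 for *Apoc1* (SE 0.24, adjusted p = 0.0466) in the edgeR quasi-likelihood fit, 2 of 10 genes beside 6.35% of all genes (3.32% higher and 3.03% lower). Of 14 fits without 1 library, 4 kept the call of *Apoa2* (without KO noCys replicate 1, WT noTrp replicate 2, or KO noTrp replicate 1 or 4) and 3 that of *Apoc1* (without WT noCys replicate 1, KO noCys replicate 1 or KO noTrp replicate 1). The adjusted p in edgeR's test reached 0.201 and 0.155 in the others.

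The 3 KO groups had the lowest means of *Apoc1* and *Apoc3*, in the same order. For *Apoc1* the group means were 2531 CPM in KO noCys (SD 359, n = 3), 3921 in KO noTrp (SD 318, n = 5), 5220 in KO CTR (SD 1064, n = 4), 5270 in WT noTrp (n = 2), 6020 in WT CTR (SD 775, n = 3) and 6049 in WT noCys (SD 1134, n = 4). Of the neighbours in this order, KO noCys and KO noTrp differed by a call and KO noTrp and KO CTR did not, and the values of the last 4 groups overlapped. For *Apoc3* they were 2012 CPM in KO noCys (SD 334), 3287 in KO noTrp (SD 600), 3870 in KO CTR (SD 788), 4065 in WT noCys (SD 706), 4393 in WT noTrp and 4492 in WT CTR (SD 662). *Apoc1*, *Apoc3* and *Apoa2* each had all 3 KO noCys livers below all 18 others, as did 3.88% of all genes tested, and 0 of 10 genes had all 3 above, beside 5.38%. For *Apoc1* the highest KO noCys liver was at 2798 CPM and the lowest other liver at 3477, for *Apoc3* at 2346 and 2874, and for *Apoa2* at 9122 and 9467.

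Ratios of genes of the same cluster were taken within each liver, as a description of 3 chosen pairs. *Apoc3* and *Apoa5* are not adjacent, since *Apoa4* lies between them. In KO noCys livers, the ratio of *Apoc1* to *Apoe* CPM was 0.105, 0.0981 and 0.117. In the other 18 livers it ran from 0.125 to 0.283, and the groups nearest to KO noCys were KO noTrp (mean 0.150, SD 0.015, n = 5) and WT noTrp (mean 0.186, n = 2). The ratio of *Apoc3* to *Apoa5* was 1.28, 0.832 and 1.05 in KO noCys livers and ran from 1.46 to 2.89 in the others, with a mean of 2.33 (SD 0.37, n = 4) in WT noCys. These ratios do not depend on the scaling of the libraries. The ratio of *Apoc3* to *Apoa1*, the nearest gene on chromosome 9, was 0.256, 0.221 and 0.241 in KO noCys livers and overlapped KO noTrp, where it ran from 0.215 to 0.322.

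**Figure D3:**
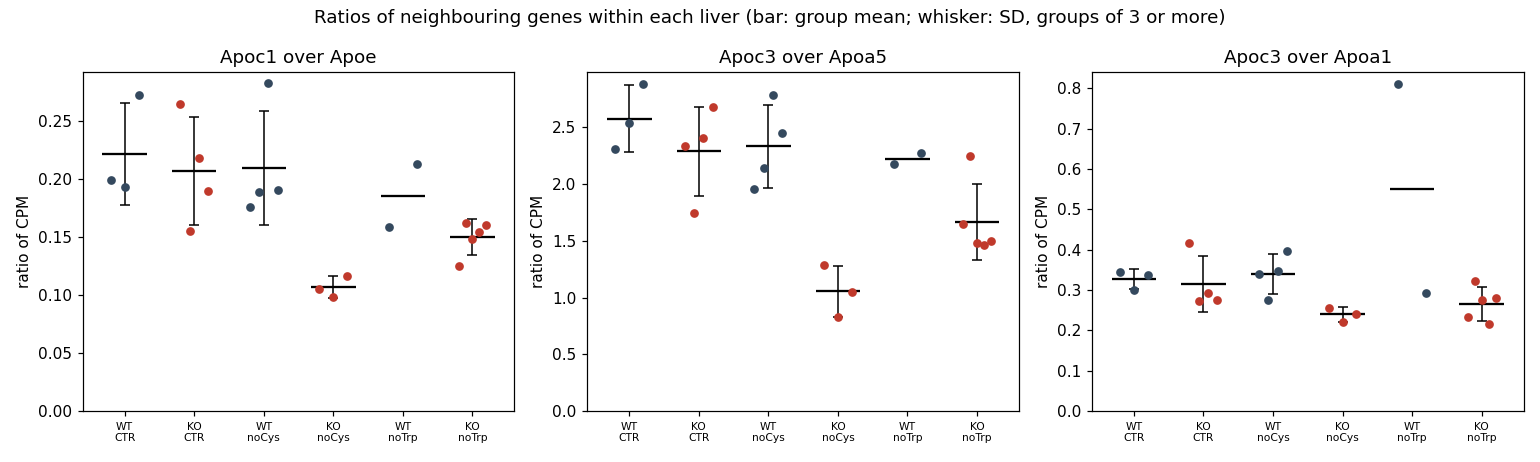
Ratio of CPM within each liver (y axes, from 0) for *Apoc1* over *Apoe*, *Apoc3* over *Apoa5* and *Apoc3* over *Apoa1*, by group (x axes), with group means as bars and SD as whiskers in groups of 3 or more. The first 2 ratios are lower in the 3 KO noCys livers than in all others, and the third overlaps KO noTrp.

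*Apoc1* and *Apoc3*, on different chromosomes, also varied together in the 18 livers that were not KO noCys. Pearson's r of their log2 CPM was 0.861 and Spearman's rho 0.845, with a permutation p of 1e-05 and 3e-05, the former the smallest that 100000 resamples give, and Benjamini-Hochberg adjusted p over 45 pairs of 0.00045 and 0.00135. Without the 2 livers farthest from the median of *Apoc1*, r was 0.831. Of the 45 pairs among the 10 genes this was the 1 that passed the correction for r. *Apoa2* with *Apoc1* reached r = 0.605 (permutation p = 0.00743, adjusted p = 0.147) and *Apob* with *Mttp*, the partners of VLDL assembly, r = 0.432 (permutation p = 0.0715, adjusted p = 0.268). All values share the library scaling, and the livers come from 5 groups. The resampling shuffled all 18 livers across these groups, so differences between groups also enter the permutation p values. Over all 21 livers, the genes outside the set with the most similar log2 CPM were *Fxyd1* (Pearson's r = 0.949) and *Zdhhc20* (0.937) for *Apoc1*, *Ier3ip1* (0.935) and *Uqcr11* (0.928) for *Apoc3*, *Nmt2* (0.949) and *Ubl5* (0.949) for *Apoa2*, *Hpcal1* (0.921) and *Cyp2c29* (0.905) for *Apoe*, and *Nkap* (0.850) and *C330002G04Rik* (0.843) for *Apoa1*. For *Apob* they were *Tut7* (0.862) and *Ceacam1* (0.855), for *Mttp* *Tjp1* (0.822) and *Rab5a* (0.795), for *Apoa4* *Zxdc* (0.787) and *Calml4* (0.757), for *Apoa5* *Ddhd2* (0.788) and *Rabggta* (0.772), and for *Apom* *Cavin2* (0.783) and *Cfi* (0.773).

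Abundance and, in part, transcript length moved with the falls. *Apoa2* has 537 bases of exon, *Apoc1* 744, *Apoc3* 1014, *Apoa1* 1236 and *Apoe* 2138, whereas *Apob* has 13934 and *Mttp* 6206. *Apom* has 1013, *Apoa4* 1815 and *Apoa5* 2522, and these were not called, at log2 fold changes of -0.45, 0.32 and 0.14 against WT noCys. Among other protein-coding genes, the median log2 fold change of KO noCys against WT noCys was -0.16 in 546 genes with up to 1300 bases of exon and -0.01 in 11785 longer ones. Among 51 other genes that averaged over 11 log2 CPM it was -0.50, with 26 called lower and 6 higher, and 6 of the 10 genes were this abundant, with 4 lower and a median of -0.60. In 7 other genes both that abundant and that short it was -0.81. In KO noCys against KO CTR the median of the 51 was -0.32, with 16 lower and 7 higher. These classes were chosen after the values were seen, and the part of length or abundance in the falls was not tested. With a length-dependent offset for each library *Apoc1* was at -1.23, *Apoc3* at -0.97 and *Apoa2* at -0.63 against WT noCys, all called, and *Apoe* at -0.27 was not called (edgeR quasi-likelihood adjusted p = 0.0601). Scaled by library totals alone, 80.0% of called genes in that comparison were higher, beside 52.5% with TMM, the median of all genes moved by 0.22 on the log2 scale, and *Apoc1* (-1.04), *Apoc3* (-0.81) and *Apoa2* (-0.45) were called lower.

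**Figure D4:**
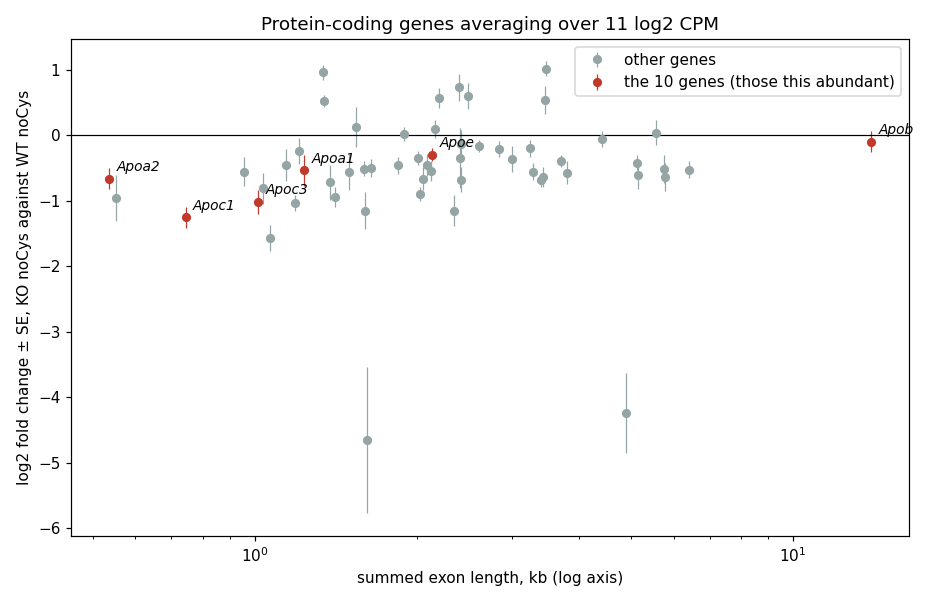
Log2 fold change with its SE in KO noCys against WT noCys (y axis) against summed exon length in kb (x axis, log scale) for the protein-coding genes that averaged over 11 log2 CPM, the 6 of the 10 genes this abundant in red. Most of the 51 other genes lie below 0, with a median of -0.50, and *Apoc1* and *Apoc3* lie at -1.26 and -1.01.

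The coding sequences differ in the amino acid that the diet lacked. The longest coding sequence annotated for each gene was counted, which need not be that of its main protein. Cysteine codons numbered 0 in *Apoc1* (88 codons), *Apoc3* (137), *Apoa1* (264) and *Apoa4* (395), and 1 in *Apoa2* (102), *Apoe* (311) and *Apoa5* (368). There were 24 in the 4505 codons of *Apob*, 12 in the 909 of *Mttp* and 6 in the 190 of *Apom*. Of the 7 genes with 0 or 1 cysteine codon, 4 were called lower against WT noCys, beside 13.4% of all genes. The other 3 (*Apoa1*, *Apoa4*, *Apoa5*) were not, although limma-voom and the fit of the compared groups called *Apoa1*. Of the 3 with 6 or more, none was called in the edgeR fit, but *Apom* was with DESeq2, limma-voom and the fit of the compared groups. As a share of codons, cysteine made up 0.27% in *Apoa5*, 0.32% in *Apoe*, 0.53% in *Apob*, 0.98% in *Apoa2*, 1.32% in *Mttp* and 3.16% in *Apom*. By this share *Apob* lay below the called *Apoa2*. Tryptophan codons numbered 0 in *Apoa2*, 1 in *Apoc1* and *Apoa4*, 3 in *Apom*, 4 in *Mttp*, 5 in *Apoc3* and *Apoa5*, 7 in *Apoe* and *Apoa1* and 41 in *Apob*. The part of codon content in the falls was not tested.

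Of 11 further apolipoprotein and particle-associated genes that were tested, 7 were called lower and 0 higher in KO noCys against WT noCys, beside 13.4% and 14.8% of all genes and the 26 lower of 51 among abundant genes given above. Their median log2 fold change was -0.51, and the highest value was that of *Apoo* (0.42, not called). *Apoc4* and *Apoc2*, the remaining genes of the chromosome 7 cluster, fell by 0.79 (log2, SE 0.23) and by 0.46 (log2, SE 0.15), the latter the gene for the activator of lipoprotein lipase. *Apon* fell by 1.10 (log2, SE 0.18, edgeR quasi-likelihood adjusted p = 0.000198), from a mean of 456 CPM to 214. *Saa4*, a constitutive HDL protein, fell by 1.14 (log2, SE 0.32), and *Clu*, the gene for apolipoprotein J, by 0.86 (log2, SE 0.15, edgeR quasi-likelihood adjusted p = 0.000297). *Apof* fell by 0.54 (log2, SE 0.11) and *Apoh* by 0.51 (log2, SE 0.11). Against KO CTR 7 of the 11 were also lower and 0 higher, beside 9.59% and 10.6% of all genes, with *Saa4* at -0.94 (SE 0.32) and *Apon* at -0.90 (SE 0.18) on the log2 scale. Against KO noTrp 5 were lower and 0 higher, beside 6.75% and 7.17% of all genes, and *Apoc2* and *Apoc4* were not called there (edgeR quasi-likelihood adjusted p = 0.0785 and 0.327).

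**Figure D5:**
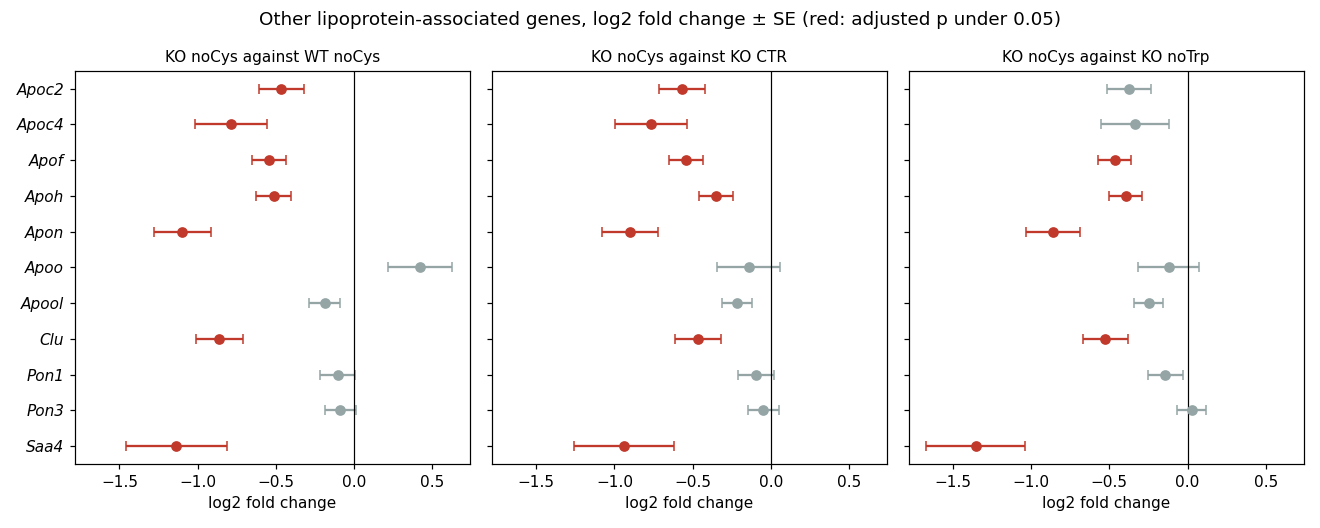
Log2 fold change with its SE (x axes) of 11 other apolipoprotein and particle-associated genes (y axis) in KO noCys against WT noCys, KO CTR and KO noTrp livers, red where the edgeR quasi-likelihood adjusted p was under 0.05. In the first 2 panels 7 genes are red, all lower, and 5 are red in the third.

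Of 26 genes of VLDL assembly and secretion, 5 were called higher and 3 lower in KO noCys against WT noCys, with a median of 0.11, a share close to the 28.2% of all genes (14.8% higher and 13.4% lower). *Hspa5*, the main chaperone of the endoplasmic reticulum, rose by 1.29 (log2, SE 0.21) and *Soat2*, which makes the cholesteryl esters that MTP loads, rose by 1.21 (log2, SE 0.17). *Sec24d*, a coat protein of export vesicles, rose by 0.79 (log2, SE 0.12), and *Ces1d*, a hydrolase of stored triglyceride, fell by 1.70 (log2, SE 0.32). The interaction of genotype and cysteine was called for *Hspa5* (1.25, SE 0.29) and *Ces1d* (-1.78, SE 0.43) in edgeR's test.

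Among 15 receptors and clearance genes, 2 were called higher and 7 lower in KO noCys against WT noCys, beside 14.8% and 13.4% of all genes. *Vldlr* rose by 1.85 (log2, SE 0.42) and *Cd36* by 2.98 (log2, SE 0.31), and *Cd36* was called higher in KO livers on the control diet (1.98) and without tryptophan (2.38) as well.

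Of 16 tested genes of lipases, lipid transfer and HDL remodelling, 3 were called higher and 4 lower in KO noCys against WT noCys, beside the same shares of all genes. *Abca1*, the exporter that lipidates ApoA-I, rose by 0.42 (log2, SE 0.13). Hepatic lipase (*Lipc*) fell by 1.01 (log2, SE 0.17) and endothelial lipase (*Lipg*) fell by 1.64 (log2, SE 0.40). Of 26 regulators of apolipoprotein genes, 1 was called higher and 4 lower, beside 14.8% and 13.4% of all genes. *Srebf2*, the factor for sterol genes, fell by 0.66 (log2, SE 0.11), *Foxo1*, a factor known at the *Apoc3* and *Mttp* promoters, by 0.98 (log2, SE 0.22) and *Nr2f2* by 0.66 (log2, SE 0.14), whereas *A1cf*, a partner in the editing of *Apob* mRNA, rose by 0.82 (log2, SE 0.23).

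Cell type markers moved with the KO noCys group to differing degrees. Their summed levels are CPM by library totals, without TMM, whereas the calls used TMM. The TMM factors were 0.998 to 1.14 in KO noCys and 0.909 to 0.962 in WT noCys. Beside WT noCys, the sums of KO noCys livers therefore stand higher than they would with TMM. Of 10 hepatocyte markers, 1 was called higher (*Ahsg*) and 4 lower (*Alb*, *Ttr*, *Serpina1a*, *Serpina1c*) against WT noCys, and their summed level was 70526 to 89236 CPM in KO noCys, 101637 to 106453 in WT noCys, 77104 to 99795 in WT CTR and 79451 to 93049 in KO CTR. Of 9 enterocyte markers 3 were tested and none was called, and their sum was 139 to 147 CPM in KO noCys and 90.3 to 141 in WT noCys. Of 8 macrophage, 7 stellate, 6 endothelial and 5 cholangiocyte markers tested, 1 (*Cd5l*), 0, 2 (*Pecam1*, *Kdr*) and 2 (*Spp1*, *Sox9*) were called lower and none higher, with sums in KO noCys against WT noCys of 99.8 to 135 against 106 to 176, 294 to 311 against 249 to 374, 104 to 109 against 96.0 to 151, and 17.2 to 20.3 against 32.1 to 54.1 CPM. Of 6 adipocyte markers 2 were tested, and *Cidec* was called higher and *Cfd* lower, with a sum of 9.56 to 30.6 against 4.96 to 12.4 CPM and *Lep* at 0 in all libraries. Of 6 pancreas markers 1 was tested and not called, their sum was 14.9 to 17.6 against 11.7 to 16.0 CPM, and *Cpa1* and *Pnlip* had 0 counts in all libraries. The part of these shifts in the falls of the apolipoprotein genes was not tested.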

How the data were processed

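Poly(A) RNA of 21 mouse livers was sequenced. The authors aligned reads to GRCm38 and counted them per gene (HISAT2 2.1.0 and HTSeq 0.11.0 in the submitters' processing notes), and the values used are the deposited raw counts per Ensembl gene. The annotation release of the counting is not given in the sources used here, and 849 of 46078 rows (0.0536% of counts) were not in GENCODE M21. A further 1 column matched no sample and was not used.

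Genes were filtered with filterByExpr (minimum count 10, minimum total 15) to 14370, scaled by TMM and fitted over all 6 groups with edgeR 4.0.16 (R 4.3.3, limma 3.58.1), with quasi-likelihood F-tests, two-sided, and Benjamini-Hochberg adjustment over all genes tested, called at an adjusted p under 0.05. There were 10 comparisons, tested on simulated data first. Alternatives were DESeq2 1.42.0, limma-voom, other scalings, no filter, fits restricted to the compared groups, a replicate block, each library left out, and, chosen after seeing the data, a length-dependent offset. The SE is that of the log2 fold change, and 95% intervals are normal. With these depths each of the 10 genes had at least 673 counts in every library, so the spread between livers and not counting sets the error.

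The members and lists were chosen with earlier results of these data known. Every member is named. From each of the 5 pathway lists (other apolipoproteins, VLDL assembly, receptors, lipases and regulators), the up to 4 called genes with the largest change in KO noCys against WT noCys are named, and up to 2 per list in the other comparisons, of which those of the KO noCys comparisons are given most fully. Some genes that this rule names are not reported here. *Apoc2*, *Apof* and *Apoh* were named after their values were seen. The 8 marker lists cover hepatocyte, enterocyte, macrophage, stellate, endothelial, cholangiocyte, adipocyte and pancreas genes.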

Additional observations from a re-analysis of the deposited data

Results flagged for a closer look

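In groups of 4 or 5 livers, 30 sets of values were searched for a liver that stands apart, and chance gives about 1 in 20. The measure was Dixon's ratio of the liver's gap to the group's range, both on log2 CPM. The search found 2. *Apoc3* in KO noTrp replicate 2 was at 4348 CPM, beside 2874 to 3128 in the other 4 livers (ratio 0.795). *Apoe* in WT noCys replicate 3 was at 27258 CPM, beside 29502 to 29821 in the other 3 (ratio 0.880), and that liver was also the highest of its group for *Apoc1*, *Apoc3* and *Apoa2*.

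For *Apoc1*, the change on the diet without cysteine was not the same in KO as in WT livers (difference of log2 fold changes -1.05), and the genotype effect differed between the diets without cysteine and without tryptophan for *Apoa2* (-0.84) and *Apoc1* (-0.83), by the interaction tests in edgeR. The latter 2 calls were lost in 10 and 11 of 14 fits without 1 library and under limma-voom and library totals, with an adjusted p of up to 0.201 and 0.155.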

How the results depend on the processing

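Against WT noCys and against KO CTR, the falls of *Apoc1*, *Apoc3* and *Apoa2* were called in all 9 other settings and in all 7 fits without 1 library, with log2 fold changes from -1.33 to -0.45. For the number of the 10 genes called, leaving out 1 library gave 3 to 5 in KO noCys against WT noCys (4 in the full fit), 3 to 4 against KO CTR (3), 0 to 3 against KO noTrp (3; 0 without KO noCys replicate 3), 0 to 1 in KO noTrp against WT noTrp (0; *Apoa1* at 1.24 without WT noTrp replicate 2, the other WT liver then assumed to vary like the other groups), 0 to 2 in WT noTrp against WT CTR (0; *Apoa1* and *Apoa2* without the same liver), 1 to 2 in the difference of cysteine effects (1) and 0 to 2 in the difference of genotype effects (2). The difference of cysteine effects gave 2 genes (*Apoc1*, *Apoc3*) with DESeq2, with limma-voom and with no filter. The difference of genotype effects gave 0 with limma-voom, with library totals and with the replicate block. WT noTrp against WT CTR gave 1 (*Apoa2*) with DESeq2 and with the length-dependent offset. Against WT noCys, DESeq2, limma-voom and the fit of the compared groups called *Apom* lower, the latter 2 also *Apoa1*, and library totals *Apoa5* higher (0.36), and library totals called *Mttp* higher against KO CTR (0.40). Limma-voom and the fit of the compared groups called *Apoa1* lower against KO CTR and KO noTrp as well. The causes were not tested.

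The numbers of the livers did not pair them: same-numbered livers of different groups had correlations of deviations from -0.36 to 0.35 over 41 pairs, 9 of them over 0.1, and 7 of 21 livers correlated best with their own number. With the number as a replicate block, 3 genes were called against WT noCys (*Apoe* lost) and 2 against KO noTrp (*Apoa2* lost, adjusted p = 0.0641 in edgeR's test). Over all genes the number called moved by over 1.5 times in some setting or without some library: 6 to 154 in KO CTR against WT CTR (46 in the full fit), 4 to 230 in KO noTrp against WT noTrp (28), 1 to 533 in WT noCys against WT CTR (95), 3 to 753 in WT noTrp against WT CTR (459), 105 to 610 in KO noTrp against KO CTR (269), 2358 to 5363 against WT noCys (4055), 1379 to 4195 against KO CTR (2906), 570 to 3204 against KO noTrp (2000), 430 to 2179 for the difference of cysteine effects (1069) and 416 to 1271 for that of genotype effects (912). Library totals raised the share of higher calls from 52.6% to 73.7% against KO CTR, from 51.5% to 68.3% against KO noTrp, from 47.9% to 72.6% and from 52.3% to 81.4% for the differences of cysteine and of genotype effects, from 53.2% to 78.0% in WT noTrp against WT CTR, from 41.6% to 55.5% in KO noTrp against KO CTR and from 21.7% to 36.6% in KO CTR against WT CTR.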
